A study of Mus musculus with 20 samples.

Results

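The genes described here are 47 mouse genes of DNA replication and S phase, chosen by symbol for their roles in origin licensing, the replication fork, nucleotide supply, replication-coupled chromatin and E2F control, out of 41115 genes counted. Of these, 46 passed the filter on low values, at least 1 CPM (the read count scaled to a common library total) in at least 3 of 20 libraries, and each of the 46 reached 1 CPM in every library. Cdc45 did not pass. The libraries are poly-A messenger RNA from mouse, and the tissue label is spleen. The stimulated arm has 10 libraries labelled LPS, IL4 and TGFb, that is bacterial lipopolysaccharide (a ligand of Toll-like receptor 4), interleukin 4 and transforming growth factor beta. The untreated arm has 10 libraries at the same times, which are 0, 15 and 30 min and 1, 2, 3, 6, 12, 24 and 48 h. The design text describes the mixture as one that stimulates AID, the deaminase of antibody class switching, and names 1 treated mouse and 1 untreated mouse. Strain, genotype, age, sorting and the way the mixture was given are not stated in the sources used here. With 1 library per arm and time, each phase uses its times in place of replicates. Errors and p-values therefore cover the spread across times, not across animals, and arm and animal cannot be told apart.

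Before S phase, the origin recognition complex, Cdc6 and Cdt1 load the ring-shaped Mcm2 to Mcm7 helicase onto DNA, and geminin (Gmnn) blocks Cdt1 from loading it again. Cdc45 and the GINS complex then complete the working helicase, primase and the DNA polymerases copy the strands with the sliding clamp PCNA, and flap removal and ligation join the lagging strand. E2F factors, released from pocket proteins when cyclins switch on their kinases, transcribe many of these genes together with the enzymes that make deoxynucleotides. In the spleen, resting B cells enter this program when they are activated to divide. Here the members past the filter were already present at 0 min. They ran from E2f7 at 9.79 CPM stimulated and 9.98 CPM untreated to Mcm6 at 381 and 385 CPM. Whether the cells were resting at 0 min was not tested.

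Library totals ran from 36873155 to 60918651 counts, so that 3 counts, taken as the limit of detection, equal 0.0464 to 0.0749 CPM (counting error only). Levels below are CPM after TMM scaling, and gene positions are those of GENCODE on GRCm38. All 8 B cell markers passed the filter, with a summed level of 1690 to 2480 CPM in stimulated and 2080 to 2500 CPM in untreated libraries. Of 8 T cell markers 2 passed, Lck at 6.53 to 12.4 CPM stimulated and 6.59 to 20.9 CPM untreated and Cd4 at 0.783 to 5.06 and 1.03 to 5.2 CPM, while Cd3e, Cd3d, Cd3g, Cd8a, Cd8b1 and Thy1 did not. Of the macrophage, dendritic and NK cell markers 4, 3 and 1 passed, and of 6 neutrophil and 6 erythroid markers 0 passed. Of 5 plasma cell markers counted 3 passed, with a summed level of 513 to 648 CPM stimulated and 574 to 662 CPM untreated. Most of this sum was Mzb1 (304 to 434 CPM stimulated and 303 to 397 CPM untreated) and Xbp1 (148 to 279 and 204 to 289 CPM). Sdc1 and Tnfrsf17 did not pass, at no more than 0.177 and 0.15 CPM in any library. Of 6 stroma and endothelium markers 3 passed. Sequencing lane changed with time in each arm, and the arms were in different lanes at every time. The 2, 3, 6 and 48 h stimulated libraries and the 30 min one were in lane 4, and the untreated 30 min, 3, 6 and 48 h libraries were in lane 3. The 12 and 24 h libraries were with 0 min and 1 h, in lane 2 for the stimulated arm and lane 1 for the untreated arm.

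Promoter sequences are shown because the members moved together and because E2F factors are among them. RefSeq promoters (GRCm38.p6, 250 bases before to 50 after the annotated start) were matched for 39 of the 47 genes. The letters TTTCCCGC, TTTGGCGC, TTTCGCGC and TTTGCCGC, searched on both strands and allowed to overlap, were in a promoter of 17 of 39 members (43.6%), against 4.64% of the 8735 other genes that passed the filter and 2.6% of all 27025 genes of the table. The letters CCAAT were in 24 of 39 (61.5%), against 43% and 41.1%. The words stood in 7 of 8 origin licensing genes and in 0 of 5 nucleotide supply genes. They were in 9 of 22 genes that rose in both arms at 2 to 6 h (described below) and in 8 of 16 other members tested. A match here describes letters and not a bound site. The 6 examples below, from roles that rose and from E2f2, are read 5′ to 3′ on the gene's strand, with the words in capitals and offsets counted from 0 at RefSeq's first transcribed base. Mcm5 (chr8:75109259-75109558, plus strand) holds 2 overlapping words at offsets -153 and -149, and Mcm6 (chr1:128359656-128359955, minus strand) holds 3, at -110, -106 and -47. Cdc6 (chr11:98907901-98908200, plus strand), Gins3 (chr8:95633309-95633608, plus strand) and Hells (chr19:38930740-38931039, plus strand) hold 1 each, at -138, -41 and -62. E2f2 (chr4:136172024-136172323, plus strand), the member that fell in the stimulated arm, holds 1 at 39, and its second RefSeq promoter holds none. GENCODE places some of these starts elsewhere. Its Cdc6 gene begins at 98907801, before the window, and its Gins3 and Hells genes at 95633453 and 38930915, before their words. By GENCODE the words of Cdc6, Gins3 and Hells therefore lie inside the gene. In GENCODE the E2f2 gene begins at 136172394, past this window.
Mcm5: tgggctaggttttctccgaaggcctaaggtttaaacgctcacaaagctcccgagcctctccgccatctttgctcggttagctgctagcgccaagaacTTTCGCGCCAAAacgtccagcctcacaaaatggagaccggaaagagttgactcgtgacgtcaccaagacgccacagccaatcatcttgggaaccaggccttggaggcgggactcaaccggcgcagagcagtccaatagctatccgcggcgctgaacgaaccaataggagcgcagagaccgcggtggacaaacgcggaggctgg
Mcm6: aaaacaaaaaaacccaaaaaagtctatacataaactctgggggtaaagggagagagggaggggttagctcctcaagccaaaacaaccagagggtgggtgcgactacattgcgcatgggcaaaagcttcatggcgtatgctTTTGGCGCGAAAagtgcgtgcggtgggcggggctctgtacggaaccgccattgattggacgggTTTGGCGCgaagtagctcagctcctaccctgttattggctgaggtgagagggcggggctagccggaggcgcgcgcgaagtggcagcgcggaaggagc
Cdc6: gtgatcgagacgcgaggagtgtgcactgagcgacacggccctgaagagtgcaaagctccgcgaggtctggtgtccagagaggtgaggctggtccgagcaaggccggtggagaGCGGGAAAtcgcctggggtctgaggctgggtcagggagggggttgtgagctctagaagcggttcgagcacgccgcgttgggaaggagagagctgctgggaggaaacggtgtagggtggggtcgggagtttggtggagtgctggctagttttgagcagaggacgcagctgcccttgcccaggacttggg
Gins3: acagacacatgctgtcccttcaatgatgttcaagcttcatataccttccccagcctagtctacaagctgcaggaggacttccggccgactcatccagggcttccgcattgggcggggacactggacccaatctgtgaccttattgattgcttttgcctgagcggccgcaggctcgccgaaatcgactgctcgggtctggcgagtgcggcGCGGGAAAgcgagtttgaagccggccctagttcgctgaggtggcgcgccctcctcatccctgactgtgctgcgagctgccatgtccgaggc
Hells: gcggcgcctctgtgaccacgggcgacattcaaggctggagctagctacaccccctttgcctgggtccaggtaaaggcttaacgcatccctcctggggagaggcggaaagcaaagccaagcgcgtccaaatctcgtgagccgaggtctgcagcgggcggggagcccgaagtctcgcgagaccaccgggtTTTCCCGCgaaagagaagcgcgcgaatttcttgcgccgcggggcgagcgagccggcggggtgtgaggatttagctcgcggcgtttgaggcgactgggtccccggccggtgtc
E2f2: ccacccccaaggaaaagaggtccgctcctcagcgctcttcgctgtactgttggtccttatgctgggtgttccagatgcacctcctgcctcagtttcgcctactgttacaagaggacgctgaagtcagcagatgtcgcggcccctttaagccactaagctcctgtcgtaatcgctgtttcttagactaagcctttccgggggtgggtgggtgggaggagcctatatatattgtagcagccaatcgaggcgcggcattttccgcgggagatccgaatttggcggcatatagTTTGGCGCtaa

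Cdc45, a part of the working helicase, had 10 counts in all over the 20 libraries, at most 2 in one library and none in 13 of them. It lies on chromosome 16 (GRCm38, chr16:18780447-18811987) inside a run of 30 neighbouring protein-coding genes, from Klhl22 to Mrpl40 over 1117 kb, each with fewer than 60 counts over all libraries and 199 counts together. The flanking genes Med15 and Hira had 84227 and 13776 counts. Within the run, Ranbp1 (nuclear transport) had 32 counts and Dgcr8 (microRNA processing) had 16. Of all 21161 protein-coding genes, 39.9% were below 60 counts. A second run of 100 genes on chromosome 17 over 1572 kb held Rps18, a ribosomal protein gene, at 14 counts. Genes that every cell uses were therefore also near 0 in such runs, and the value of Cdc45 is not read as its level. The cause was not tested.

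**Figure D1:**
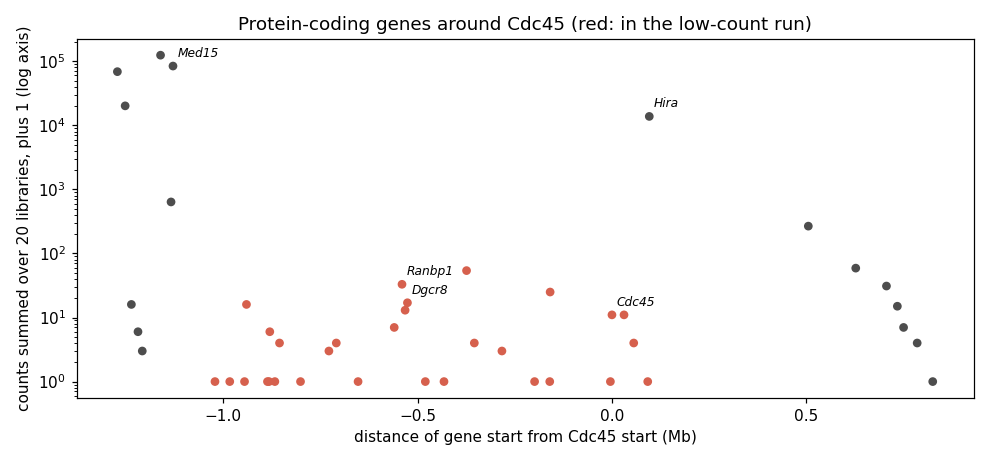
Counts summed over 20 libraries, plus 1, on a log axis, for protein-coding genes against the distance of their start from that of Cdc45 in Mb, where red points are the 30 genes of the low run. Cdc45 and its neighbours lie below 60 counts between Med15 (84227) and Hira (13776).

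In both arms most of these genes were higher at 2, 3 and 6 h than in the first hour (15 min, 30 min and 1 h). In the stimulated arm 30 of 46 rose and 1 fell, where 22.1% of all 12139 genes tested were called higher and 19.3% lower. The untreated arm also had 30 higher and 1 lower, where 13.6% of all genes were called higher and 11.9% lower. The median log2 fold change over the 46 was 0.55 stimulated and 0.52 untreated, and 0 over all genes in each arm. Of the 30 genes called higher in each arm, 28 were the same. Across the 46 genes the fold changes of the arms had a Pearson r of 0.92 and a Spearman rho of 0.93, a description over genes that share the libraries of each arm. In these bulk libraries more cells of a type and more RNA per cell cannot be told apart. Scaling by library totals alone moved the median of all genes to -0.14 and that of the members to 0.41 in the stimulated arm, with 27 higher and 2 lower. Within lane 4 the stimulated members had a median difference of 0.52 (2, 3 and 6 h over 30 min), and 41 of 46 were higher. Within lane 3 the untreated members had 0.58 (3 and 6 h over 30 min), and 42 of 46 were higher. Leaving out any 1 time gave 27 to 33 stimulated genes called higher, and lane as a term gave 30 stimulated and 28 untreated. The untreated count was 9 without 30 min, 14 without 3 h and 19 without 15 min. In these fits the median log2 fold change of the members was 0.48, 0.47 and 0.51, against 0.52 with all times. Untreated calls that held without any 1 time were those of Gmnn, Mcm3, Mcm7, Gins3, Pcna, Fen1, Lig1, Uhrf1 and E2f8, and stimulated calls that did not were those of Cdc6, Pole, Chaf1a and E2f1. With moved phase limits (2 h in the first phase, 12 h in the second) 22 of 31 stimulated and 18 of 31 untreated calls held. The medians of the members were then 0.5 and 0.48. Untreated calls of Gins3, Fen1, Uhrf1 and E2f8 were lost there, and those of Rpa2, Rrm2, Chaf1b, Ccne1 and Ccne2 in both arms.

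**Figure D2:**
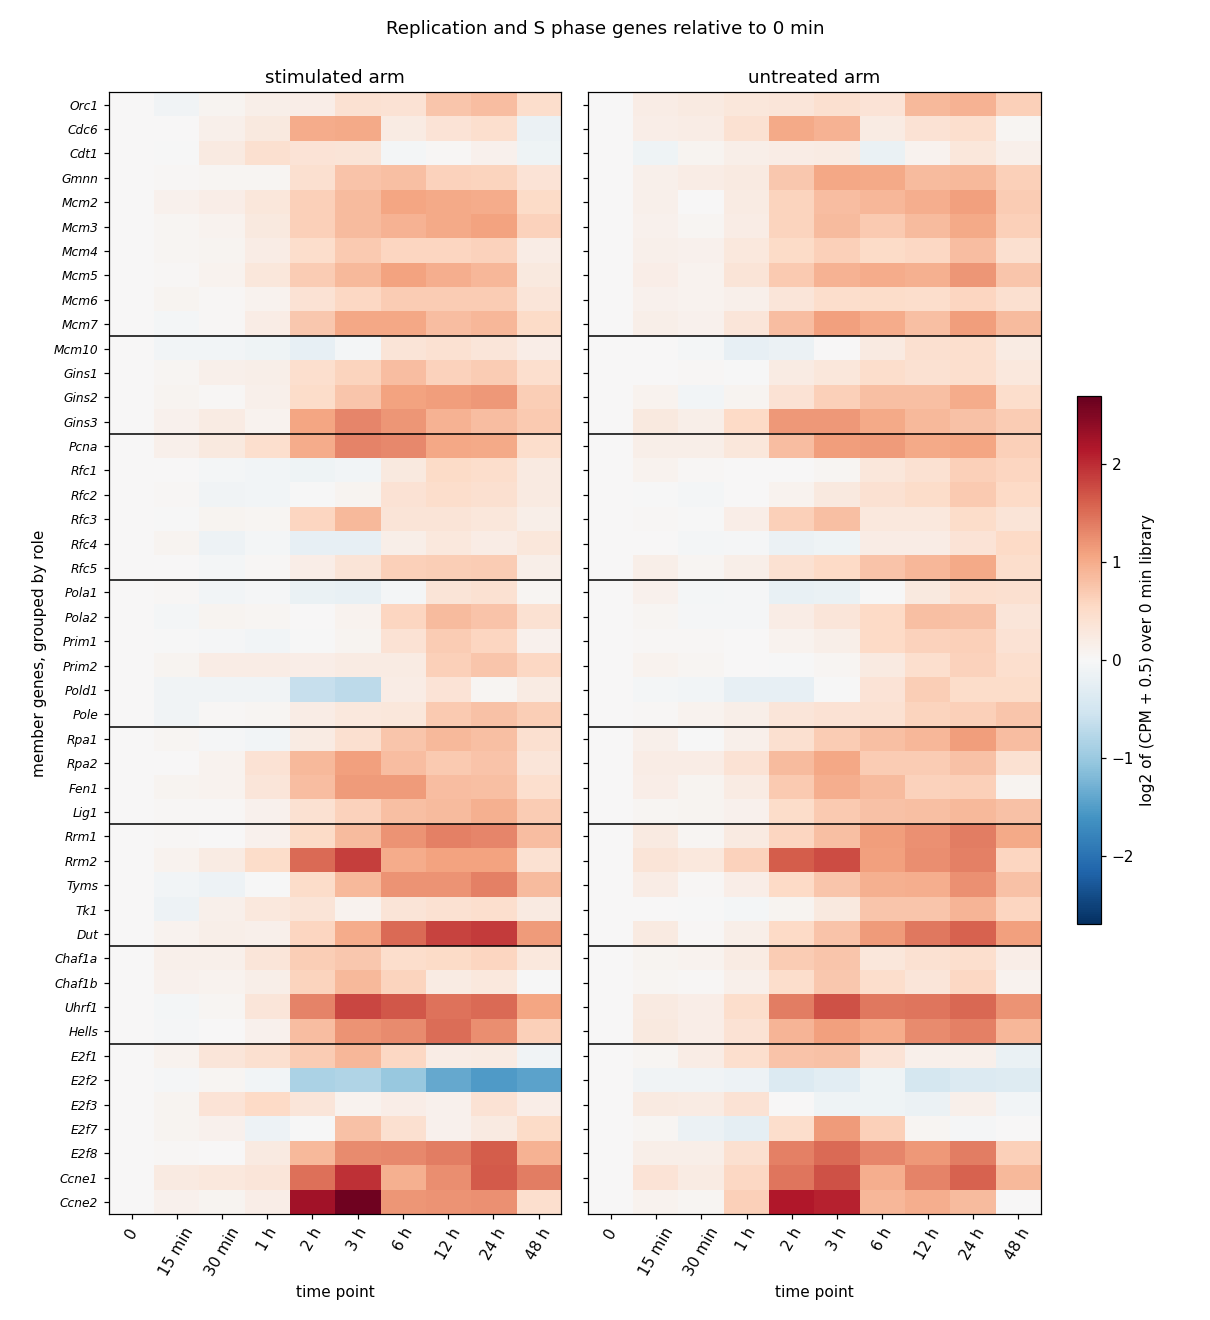
Log2 of CPM plus 0.5 over the 0 min library of the same arm, for 46 genes (rows, grouped by role with black lines between roles) and 10 times (columns), stimulated left and untreated right. Both panels turn red from 2 h in most rows, with Ccne2 at 6.39 times its 0 min level at 3 h in the stimulated arm and 4.32 times in the untreated arm, and E2f2 turns blue in the stimulated panel.

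Origin licensing genes rose at 2 to 6 h for 8 of 10 members in the stimulated arm and 7 of 10 in the untreated arm. All 6 helicase subunits Mcm2 to Mcm7 and Gmnn rose in both. Mcm5 (chr8:75109569-75128439, plus strand) read 280, 286, 301, 344, 449, 511, 592, 556, 524 and 338 CPM in the stimulated libraries from 0 min to 48 h, against 285, 321, 305, 365, 463, 547, 569, 556, 651 and 480 CPM in the untreated libraries. The 2, 3 and 6 h libraries lay above every earlier one in each arm, by a log2 fold change of 0.74 ± 0.17 stimulated (SE, adjusted p = 0.0033) and 0.67 ± 0.17 untreated (adjusted p = 0.011, lost without 30 min or 3 h). In order of time Mcm2 stood at 214, 232, 241, 266, 334, 387, 449, 434, 432 and 305 CPM in the stimulated arm. It was 226, 248, 229, 262, 343, 404, 421, 446, 488 and 364 CPM in the untreated arm. Its course was close to that of Mcm5, with log2 fold changes of 0.67 ± 0.15 and 0.66 ± 0.15 (adjusted p = 0.0028 stimulated and 0.0066 untreated, where the untreated call was lost without 30 min). Mcm7 rose by 0.88 ± 0.13 stimulated and 0.79 ± 0.13 untreated, and held both calls without any 1 time. For Cdc6 (chr11:98907801-98923940, plus strand) the stimulated libraries held 101, 101, 111, 122, 202, 207, 118, 131, 138 and 90.8 CPM in order of time, and the untreated libraries held 100, 113, 115, 134, 205, 191, 116, 131, 138 and 104 CPM. At 3 h the loading factor Cdc6 stood at 2.05 times its 0 min level stimulated and 1.91 times untreated, and by 6 h it was down to 118 and 116 CPM. Its difference at 2 to 6 h passed the test in the stimulated arm (0.65 ± 0.23, adjusted p = 0.031, lost without 15 min, 30 min, 1 h, 2 h or 3 h) and not in the untreated arm (0.5 ± 0.23, adjusted p = 0.11), and the difference between the arms did not pass (0.15 ± 0.07, adjusted p = 0.24). Cdt1 read 75.8, 75.6, 90.1, 102, 98.3, 96.1, 73.1, 77.5, 82.2 and 69.8 CPM in the stimulated libraries from 0 min to 48 h, against 85.1, 78.8, 90.2, 95, 98.3, 100, 75.4, 90.3, 105 and 93.5 CPM in the untreated libraries. Cdt1, the other loading factor, did not pass the test in either arm, with log2 fold changes of 0 ± 0.14 and 0.05 ± 0.14. It too was lower at 6 h than at 3 h, at 0.761 times stimulated and 0.751 times untreated. The levels of Orc1 by time were 35.6, 33.3, 37.5, 39.9, 40.1, 47.2, 46.9, 59.9, 63.4 and 49.6 CPM in the stimulated arm. It was 34.3, 39.2, 40.9, 42.4, 43.3, 46.7, 44.6, 63.6, 66.5 and 53.6 CPM in the untreated arm. Orc1, the largest subunit of the origin recognition complex, did not exceed 47.2 CPM stimulated and 46.7 CPM untreated up to 6 h and was highest at 24 h in both arms.

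The GINS complex, which joins the Mcm ring when origins fire, rose in both arms through Gins1, Gins2 and Gins3, and Mcm10 did not pass the test. Gins3 rose by 1.07 ± 0.11 in the stimulated arm (adjusted p = 1.8e-05) and 0.81 ± 0.11 in the untreated arm (adjusted p = 0.00075), and peaked at 3 h in the stimulated arm. For Gins2 the stimulated libraries held 28.3, 29.6, 28.8, 31, 40.4, 48.2, 60.7, 62.2, 64 and 45.1 CPM in order of time, and the untreated libraries held 29.1, 31.3, 27.7, 30.8, 38.5, 45.6, 51.4, 51.4, 59 and 40.4 CPM. Gins2 was higher in both arms at each time from 2 h on than at any earlier time. Of 4097 exon bases of Gins2, 2758 overlap Gse1 on the opposite strand, and the strand setting of the counting is not given, so its counts may hold reads of that gene. Mcm10, a firing factor, was 138 CPM stimulated and 149 CPM untreated at 2 h, below its 0 min levels of 160 and 167 CPM, and 203 and 198 CPM at 6 h.

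Among the clamp genes Pcna and Rfc3 rose in both arms, while the other clamp loader subunits did not pass in both. Pcna (chr2:132249162-132253314, minus strand) read 196, 215, 236, 270, 391, 494, 483, 407, 398 and 273 CPM in the stimulated libraries from 0 min to 48 h, against 205, 228, 228, 254, 364, 449, 456, 415, 430 and 322 CPM in the untreated libraries. Pcna, the sliding clamp itself, was above its first-hour levels at every time from 2 h on in both arms, with log2 fold changes at 2 to 6 h of 0.92 ± 0.16 (adjusted p = 0.00061) and 0.84 ± 0.16 (adjusted p = 0.0031). Rfc3 reached 53.3 CPM stimulated and 51.8 CPM untreated at 3 h and stood at 36.7 and 35.9 CPM at 6 h. From 0 min to 48 h the level of Rfc1 was 161, 163, 155, 154, 148, 154, 192, 232, 225 and 190 CPM in the stimulated arm. It was 161, 172, 165, 163, 161, 166, 198, 214, 252 and 241 CPM in the untreated arm. Rfc1, the large loader subunit, stayed between 148 and 163 CPM up to 3 h stimulated and between 161 and 172 CPM untreated, and was highest at 12 h stimulated and 24 h untreated. Rfc4 was lower at 2 and 3 h than at 0 min in both arms, at 54.3 and 54.3 CPM stimulated and 54.2 and 55.7 CPM untreated, against 63.4 and 60.5 CPM at 0 min. Rfc5 lay at the threshold in both arms, just past it untreated (0.45 ± 0.16) and just short of it stimulated (0.41 ± 0.16), and the untreated call was lost without any 1 of 5 times.

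Polymerase and primase genes were highest late, at 12 or 24 h for 6 of 6 in the stimulated arm and 5 of 6 in the untreated arm. Their median over 0 min was 0.09 stimulated and 0.11 untreated at 3 h, and 0.67 and 0.62 at 12 h on the log2 scale. At 2 to 6 h Pole was the only 1 of 6 called higher, in both arms (0.27 ± 0.07 and 0.29 ± 0.07). For Pola1 (chrX:93304767-93632155, minus strand) the stimulated libraries held 127, 129, 121, 124, 112, 111, 122, 161, 169 and 132 CPM in order of time, and the untreated libraries held 123, 134, 118, 121, 107, 109, 122, 148, 168 and 167 CPM. Pola1, the catalytic subunit of the polymerase that starts each strand, was lowest at 2 and 3 h in both arms, and higher at 24 h by 1.53 and 1.54 times its 3 h level. Prim2 read 34.6, 36.4, 39.6, 39.9, 39.2, 40.7, 40.6, 54.3, 58.1 and 51.2 CPM in the stimulated libraries from 0 min to 48 h, against 38.5, 41.2, 40.1, 38.9, 38.1, 40.2, 45.7, 52.6, 59.2 and 52.9 CPM in the untreated libraries. Its partner Prim2, the large primase subunit, was also higher at 12 and 24 h than at any earlier time. In order of time Pole stood at 112, 105, 115, 117, 129, 137, 139, 183, 195 and 179 CPM in the stimulated arm. It was 124, 126, 132, 138, 155, 162, 166, 189, 195 and 209 CPM in the untreated arm. Pole, the catalytic subunit of the leading strand polymerase, climbed in both arms, to its highest level at 24 h stimulated and 48 h untreated. For Pold1 the stimulated libraries held 83, 77.8, 77.2, 77.8, 54, 50.4, 94.9, 107, 86.1 and 96.2 CPM in order of time, and the untreated libraries held 79.7, 77, 75.7, 68.7, 68.2, 78.7, 103, 126, 113 and 112 CPM. Pold1, the catalytic subunit of the lagging strand polymerase, was 54 and 50.4 CPM at 2 and 3 h in the stimulated arm, its lowest libraries, and 68.2 and 78.7 CPM in the untreated arm. From 3 to 24 h the 6 genes were higher by 1.42 to 1.71 times stimulated and 1.21 to 1.54 times untreated, with no test at single times.

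All 4 genes of single-strand binding and lagging strand joining rose in both arms. Rpa2, a subunit of the protein that coats single-stranded DNA, reached 148 CPM stimulated and 144 CPM untreated at 3 h, against 68.9 and 69.8 CPM at 0 min. Fen1, the flap nuclease, rose by 0.9 ± 0.15 and 0.7 ± 0.15, but 2039 of its 2422 exon bases overlap genes on the opposite strand. Lig1, the ligase of the lagging strand, rose by 0.57 ± 0.1 and 0.58 ± 0.1 and held both calls without any 1 time.

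Nucleotide supply genes had the largest median over 0 min of any role at 6, 12, 24 and 48 h in both arms, 1.31 stimulated and 1.35 untreated at 24 h. Rrm2 (chr12:24708241-24714146, plus strand) read 109, 117, 127, 153, 317, 396, 219, 233, 232 and 145 CPM in the stimulated libraries from 0 min to 48 h, against 111, 141, 136, 171, 344, 379, 238, 264, 284 and 167 CPM in the untreated libraries. Rrm2, the small subunit of ribonucleotide reductase, reached 3.63 times its 0 min level at 3 h stimulated and 3.42 times untreated, and at 6 h it held 0.553 and 0.629 times its 3 h level. Over 2 to 6 h it rose by 1.23 ± 0.25 stimulated (adjusted p = 0.0018) and 1.1 ± 0.25 untreated (adjusted p = 0.0074, lost without 30 min). Its large partner Rrm1 kept climbing, to 562 CPM at 12 h stimulated and 556 CPM at 24 h untreated, against 219 and 213 CPM at 0 min. The levels of Tyms by time were 62.8, 60, 57.1, 61.9, 88.4, 116, 147, 147, 161 and 114 CPM in the stimulated arm. It was 61.3, 71, 62.8, 69.3, 89.4, 104, 119, 122, 144 and 106 CPM in the untreated arm. Tyms, thymidylate synthase, climbed without an early peak, by 0.97 ± 0.17 at 2 to 6 h stimulated (adjusted p = 0.00076) and 0.62 ± 0.17 untreated (adjusted p = 0.018, lost without 15 min, 30 min or 3 h). Dut, which removes dUTP, had its highest levels at 24 h, 218 CPM stimulated and 191 CPM untreated. For Tk1 the stimulated libraries held 33.8, 30.5, 37.4, 41.3, 43.2, 36.4, 43, 44.9, 46.4 and 40.1 CPM in order of time, and the untreated libraries held 36.6, 36.8, 36.2, 35.4, 38.5, 43.8, 61.7, 61.5, 69.5 and 54.8 CPM. Tk1, the salvage kinase for thymidine, did not pass at 2 to 6 h in either arm (0.17 ± 0.15 and 0.41 ± 0.15, adjusted p = 0.4 and 0.062).

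The 4 genes of replication-coupled chromatin rose in both arms. Uhrf1 (chr17:56303321-56323486, plus strand) read 167, 161, 173, 211, 425, 580, 532, 460, 485 and 350 CPM in the stimulated libraries from 0 min to 48 h, against 176, 207, 198, 243, 459, 578, 476, 483, 518 and 411 CPM in the untreated libraries. Uhrf1, which guides maintenance of DNA methylation on new strands, stood at 425 CPM stimulated and 459 CPM untreated at 2 h and had not exceeded 243 CPM in either arm up to 1 h, with log2 fold changes of 1.5 ± 0.16 stimulated (adjusted p = 1.8e-05) and 1.22 ± 0.15 untreated (adjusted p = 0.00041). Hells, a chromatin remodeller of the same process, rose by 1.09 ± 0.18 and 0.73 ± 0.18. From 0 min to 48 h the level of Chaf1b was 51, 55.6, 54.7, 56.9, 77.7, 94.1, 77.3, 59.7, 61.8 and 50.6 CPM in the stimulated arm. It was 54.8, 56.7, 56.3, 60.2, 76.5, 90.8, 76.5, 68.9, 80.5 and 58.7 CPM in the untreated arm. Chaf1b and its partner Chaf1a, which place histones behind the fork, were highest at 3 h in both arms. Of 8854 exon bases of Chaf1a, 4648 overlap Ubxn6 on the opposite strand.

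The E2F and cyclin E genes held the widest contrasts. For Ccne2 (chr4:11191351-11204779, plus strand) the stimulated libraries held 15.1, 16.5, 15.9, 17.1, 75, 96.3, 35.1, 35.5, 36.2 and 21 CPM in order of time, and the untreated libraries held 17.7, 18.8, 18.5, 28, 80.5, 76.7, 33.3, 35.3, 32.2 and 17.9 CPM. Ccne2, cyclin E of the G1 to S transition, jumped between 1 and 2 h in both arms and was below its 2 h level in all later libraries except 3 h stimulated, with log2 fold changes at 2 to 6 h of 2.06 ± 0.38 stimulated (adjusted p = 0.001) and 1.54 ± 0.38 untreated (adjusted p = 0.01, lost without 15 or 30 min). Ccne1 read 38.1, 45.5, 46.3, 47.6, 107, 150, 74.2, 91.2, 121 and 99.8 CPM in the stimulated libraries from 0 min to 48 h, against 40.9, 52.6, 47.5, 60.7, 113, 136, 81.4, 104, 124 and 75.5 CPM in the untreated libraries. Ccne1, the second cyclin E gene, peaked at 3 h in both arms and had a second high value at 24 h. In order of time E2f1 stood at 29.1, 30.9, 36.8, 39.4, 46.8, 54.4, 43, 33.4, 34.2 and 27.3 CPM in the stimulated arm. It was 34.8, 35.9, 40.3, 47.8, 59.8, 60.8, 44.8, 38.3, 38.1 and 30.5 CPM in the untreated arm. E2f1, an activating E2F, was highest at 3 h and lowest at 48 h in both arms. For E2f8 the stimulated libraries held 20.1, 20.6, 20.4, 23.9, 37.4, 49.3, 49.8, 53.2, 63.4 and 38.8 CPM in order of time, and the untreated libraries held 18.9, 21.2, 21, 25.5, 49, 55.1, 47.6, 43.3, 50.3 and 29.9 CPM. E2f8, a repressing E2F that these factors switch on, rose by 1.07 ± 0.19 and 1.16 ± 0.19. E2f7 read 9.79, 10.3, 10.6, 8.86, 9.78, 17.2, 13.4, 10.6, 11.6 and 14.2 CPM in the stimulated libraries from 0 min to 48 h, against 9.98, 10.3, 8.92, 8.33, 14, 22.8, 15.8, 10.4, 9.69 and 10.1 CPM in the untreated libraries. E2f7, its close relative, peaked at 3 h in both arms, and passed at 2 to 6 h in the untreated arm (0.93 ± 0.2, adjusted p = 0.0062, lost without 30 min) and not in the stimulated arm (0.44 ± 0.2, adjusted p = 0.09). The difference between the arms in the change of E2f7 did not pass (-0.49 ± 0.14, adjusted p = 0.064). The levels of E2f3 by time were 65.3, 69, 84.4, 95.1, 82, 69.5, 73.5, 71, 86.1 and 73.5 CPM in the stimulated arm. It was 83.4, 98.9, 97.6, 110, 83.8, 76.4, 76.4, 74.7, 92.1 and 78.7 CPM in the untreated arm. E2f3, an activator, was highest at 1 h in each arm and fell at 2 to 6 h in the untreated arm (-0.37 ± 0.12, lost without any 1 of 5 times), against -0.14 ± 0.12 in the stimulated arm, a difference that did not pass (0.24 ± 0.09, adjusted p = 0.12). For E2f2 (chr4:136172394-136196057, plus strand) the stimulated libraries held 55.9, 54.6, 58.3, 52.9, 30.7, 31.4, 27.2, 21, 19 and 20.1 CPM in order of time, and the untreated libraries held 54.5, 51.3, 51, 49.2, 41.9, 44.9, 50.4, 39.2, 42.2 and 42.4 CPM. E2f2, grouped with the activators, went the other way in the stimulated arm, where it fell by 0.89 on the log2 scale (SE 0.09, adjusted p = 1.1e-05) and every library from 2 h on lay below all earlier ones. The untreated arm changed by -0.14 ± 0.09, which did not pass (adjusted p = 0.23).

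**Figure D3:**
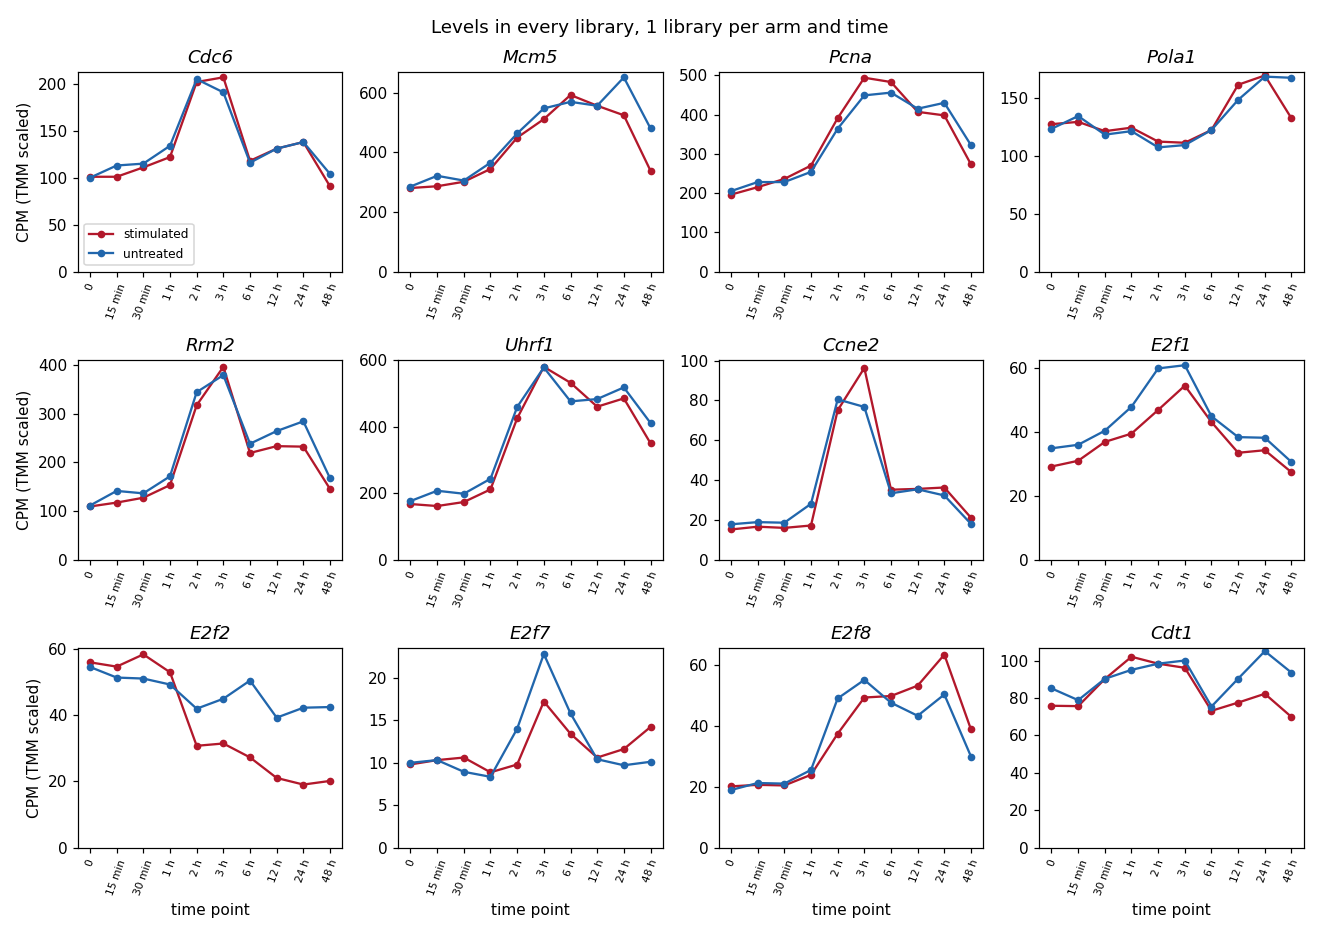
CPM (y, linear from 0) at 10 times (x, evenly spaced) for 12 of the genes, with 1 point per library, stimulated in red and untreated in blue. Cdc6, Rrm2 and Ccne2 peak at 2 or 3 h in both arms, Pola1 rises at 12 and 24 h, and E2f2 separates the arms from 2 h, with 19 CPM stimulated and 42.2 CPM untreated at 24 h.

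By role, medians over 0 min are given as a description, with no test between roles. E2F and cyclin E genes had their highest median at 3 h, 0.89 stimulated and 1.15 untreated over 0 min, and 0.2 and 0.14 at 12 h. Licensing genes were at 0.81 and 0.85 at 3 h and lay between 0.61 and 0.9 from 6 to 24 h. Single genes peaked at 2 or 3 h for 15 of 46 in each arm and at 12 or 24 h for 22 stimulated and 25 untreated. Over 1.3-fold lower at 6 h than at 3 h in both arms were 6 genes, Cdc6, Cdt1, Rfc3, Rrm2, Ccne1 and Ccne2. These 3 and 6 h libraries shared a lane within each arm. Over 1.3-fold higher at 24 h than at 3 h in both arms were 11 genes, Orc1, Rfc1, Rfc4, Pola1, Pola2, Prim1, Prim2, Pold1, Rrm1, Tyms and Dut. The 24 and 3 h libraries were in different lanes, whose part was not tested. For these counts of peak times and 1.3-fold changes no share over all genes was computed, so they describe the members only. Within lane 2 the stimulated 12 and 24 h libraries exceeded 0 min and 1 h by a median of 0.66 over the members, with 42 of 46 higher, and within lane 1 the untreated ones exceeded 0 min, 15 min and 1 h by 0.64, with 43 of 46 higher.

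**Figure D4:**
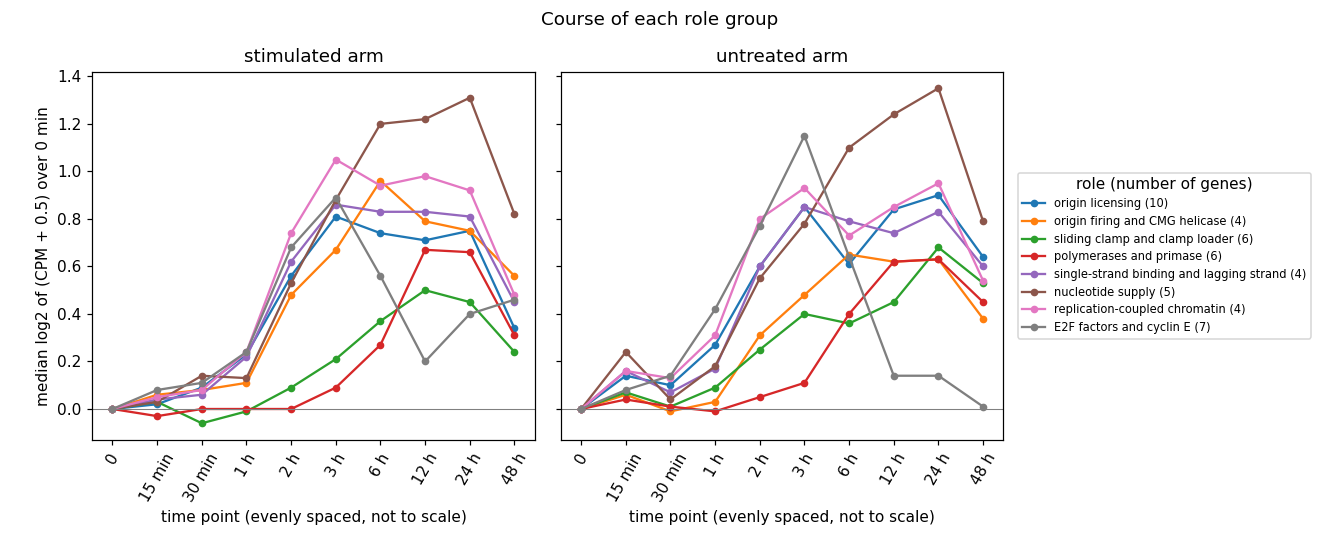
Median log2 of CPM plus 0.5 over 0 min (y) for each role at 10 times (x, evenly spaced), stimulated left and untreated right, with the number of genes per role in the legend. E2F and cyclin E genes (grey) peak at 3 h (0.89 and 1.15), and polymerase and primase genes (red) stay at 0.09 and 0.11 at 3 h and reach 0.67 and 0.62 at 12 h.

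At 12, 24 and 48 h against 2, 3 and 6 h, few members moved further. In the stimulated arm 5 rose (Orc1, Rfc1, Pola1, Prim2 and Pole) and 5 fell (Gins3, Chaf1b, E2f1, E2f2 and Ccne2), where 11.5% of all genes were called higher and 10.1% lower. In the untreated arm 6 rose (Orc1, Rfc1, Rfc4, Pola1, Prim2 and Pole) and 2 fell (E2f1 and E2f7), where 6.19% were called higher and 5.83% lower. The members' shares were 10.9% each way stimulated, near that background, and 13% higher and 4.35% lower untreated. Pole rose by 0.45 ± 0.07 stimulated (adjusted p = 0.0011) and 0.3 ± 0.07 untreated (adjusted p = 0.019), and Pola1 by 0.42 ± 0.1 (adjusted p = 0.0077) and 0.52 ± 0.1 (adjusted p = 0.0069). E2f1 fell by 0.6 on the log2 scale stimulated (SE 0.15, adjusted p = 0.013) and by 0.63 untreated (SE 0.15, adjusted p = 0.018). Ccne2 changed by -1.16 ± 0.37 in the stimulated arm (adjusted p = 0.038). Scaled by library totals alone, the untreated split was 5 higher and 5 lower. With lane as a term 2 rose and 7 fell in the stimulated arm, and 0 rose and 0 fell in the untreated arm. Stimulated calls of Prim2, Pole, Chaf1b and E2f2 held without any 1 time, and no untreated call did. With moved phase limits (2 h in the first phase, 12 h in the second) no call was left in either arm. The stimulated counts of higher genes were 3, 2, 16, 3, 3 and 8 without 2, 3, 6, 12, 24 and 48 h in turn, and those of lower genes were 2, 9, 3 and 3 without 3, 6, 24 and 48 h. The untreated counts of higher genes were 1, 0, 15 and 1 without 2, 3, 6 and 24 h, and those of lower genes 1, 0, 7 and 0. Within a lane only 48 h could be set against the middle times, with median differences of -0.2 stimulated (48 h over 2, 3 and 6 h in lane 4) and -0.16 untreated (48 h over 3 and 6 h in lane 3).

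From 24 to 48 h 42 of 46 members were lower in each arm, with a median log2 difference of -0.35 stimulated and -0.31 untreated, while the median of all genes moved by -0.01 in both. Ccne2 kept 58% of its 24 h level stimulated and 55.7% untreated, Rrm2 kept 62.6% and 58.8%, and E2f8 61.1% and 59.4%. Pold1 was at 112% and 99.1%. This is 1 library against 1 in each arm, in different lanes, with no test.

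The stimulated and untreated arms were close to each other for most members. In the first hour 0 were higher in stimulated libraries and 3 lower, where 0.601% of all genes were called higher and 1.68% lower. These were Pole (-0.23 ± 0.05), Uhrf1 (-0.25 ± 0.06) and E2f3 (-0.31 ± 0.06), with adjusted p of 0.033, 0.049 and 0.026. By DESeq2, 0 were higher and 4 lower. By edgeR 12 of 46 had an unadjusted p under 0.05, a limit at which no share over all genes was computed. None of these calls held without 15 min, without 30 min or without 1 h, where the count was 0 each time, nor relative to the 0 min pair, and with no filter on low counts 5 were lower. E2f3 was already 65.3 CPM in the stimulated and 83.4 CPM in the untreated library at 0 min.

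At 2, 3 and 6 h 0 members were higher and 5 lower in stimulated than in untreated libraries, where 9.76% of all genes were called higher and 10.5% lower. The members' share of lower calls was 10.9%, near that background. DESeq2 also called 0 higher. By edgeR 9 of 46 had an unadjusted p under 0.05, again with no share over all genes at that limit. E2f2 was 30.7, 31.4 and 27.2 CPM stimulated against 41.9, 44.9 and 50.4 CPM untreated, 1.53-fold lower (-0.62 ± 0.08, adjusted p = 0.00067). Pold1 was lower by -0.36 ± 0.08, Pole by -0.25 ± 0.05, E2f7 by -0.38 ± 0.1 and Rfc5 by -0.14 ± 0.04 on the log2 scale. The calls of E2f2 and Pole held without any 1 time, while without 3 h 2 were lower and without 2 h 1 was higher. Relative to the 0 min pair 0 passed, with moved phase limits 5 were higher and 5 lower, and scaled by library totals alone 0 were higher and 9 lower.

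At 12, 24 and 48 h 4 members were higher and 9 lower in stimulated libraries, where 18.8% of all genes were called higher and 17.4% lower. The members' shares were 8.7% higher, below that background, and 19.6% lower, near it. Scaled by library totals alone, the split was 1 and 20. E2f2 was 21, 19 and 20.1 CPM stimulated against 39.2, 42.2 and 42.4 CPM untreated, with no overlap, 2.05-fold lower (-1.04 ± 0.08, adjusted p = 7.8e-06). Tk1 was lower by -0.5 ± 0.12 (adjusted p = 0.0062) and Cdt1 by -0.33 ± 0.05 (adjusted p = 0.00061), each below the untreated library at all 3 times. Mcm5 (-0.27 ± 0.08), Mcm2 (-0.15 ± 0.05), Rfc5 (-0.26 ± 0.04), Pold1 (-0.29 ± 0.08), Rrm2 (-0.22 ± 0.05) and Chaf1b (-0.27 ± 0.05) were also lower. E2f8 was 53.2, 63.4 and 38.8 CPM stimulated against 43.3, 50.3 and 29.9 CPM untreated (0.34 ± 0.07, adjusted p = 0.0046). Gins2 (0.18 ± 0.06), Tyms (0.18 ± 0.06) and Fen1 (0.16 ± 0.06) were higher by small amounts. Calls of Cdt1, Rfc5, Tk1, Chaf1b, E2f2 and E2f8 held without any 1 time. Without 12 h 2 were higher and 16 lower, and without 24 h 2 were higher and 5 lower. Relative to the 0 min pair 0 were higher and 1 lower, which was E2f2. With moved phase limits 1 was higher and 14 lower, and with a filter of at least 5 CPM in 3 libraries 2 were higher and 15 lower. Of the macrophage markers that passed, 2 of 4 were higher in late stimulated libraries (summed level over all times 39.5 to 98.1 CPM stimulated and 25.9 to 62.4 CPM untreated), as were 2 of 3 dendritic cell markers (28.8 to 66.1 and 18.4 to 29.8 CPM). Of 8 B cell markers 1 was higher and 4 were lower. Of those that passed, 2 of 3 plasma cell, 1 of 2 T cell and 1 of 1 NK cell markers were lower. For stroma and endothelium 1 of 3 was higher. The part of these cells in the late differences was not tested.

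**Figure D5:**
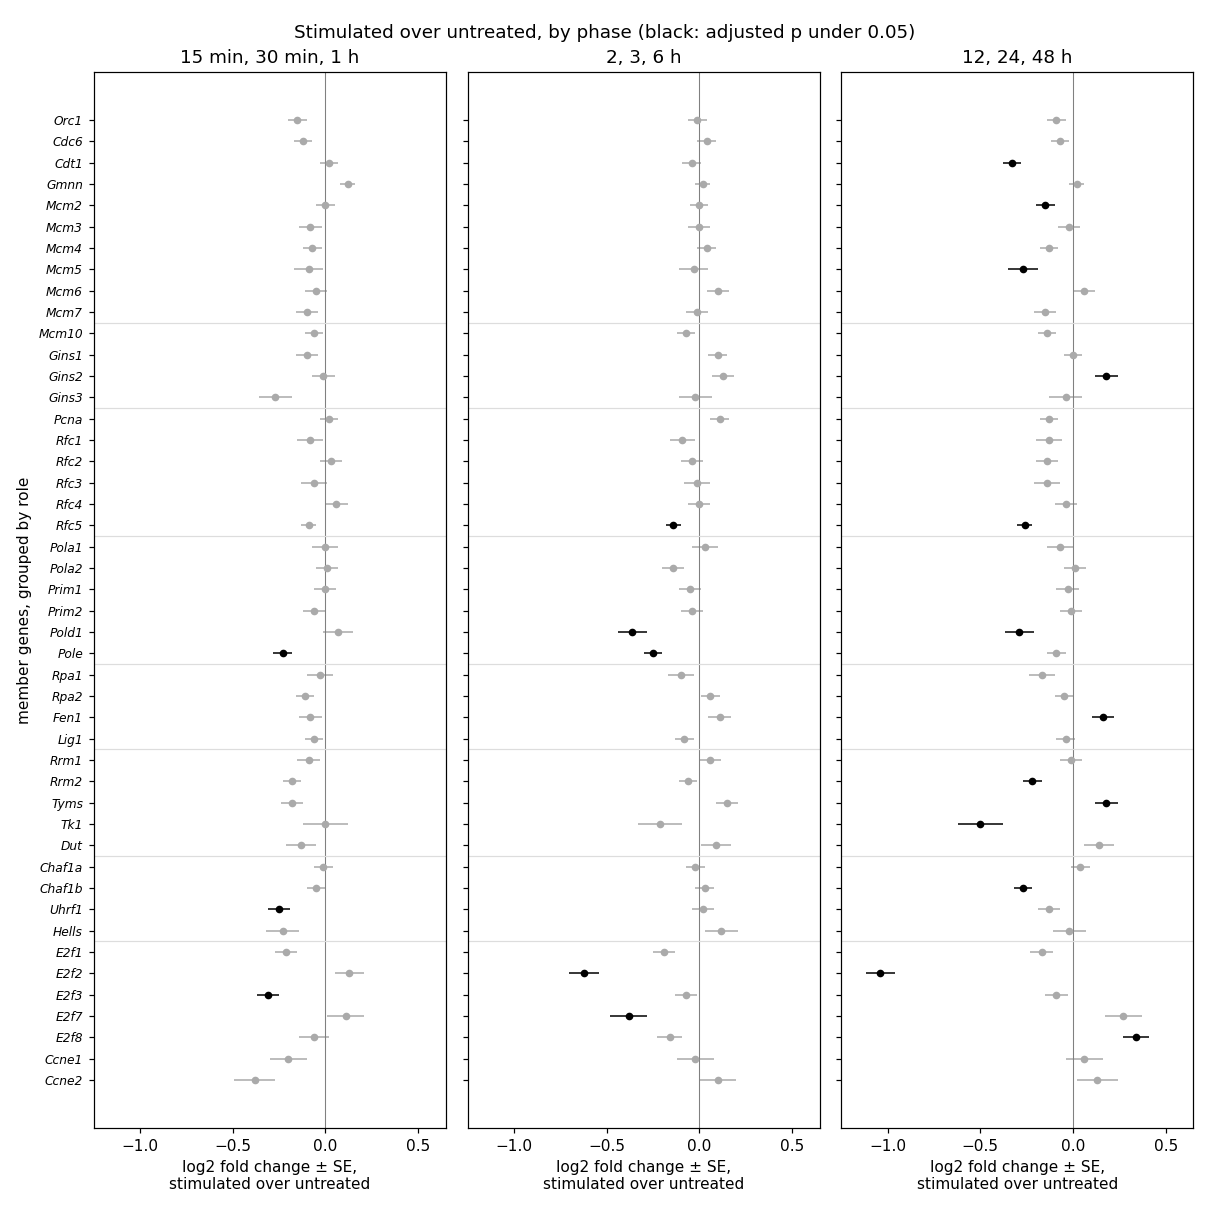
Log2 fold change of stimulated over untreated (x) with its SE (bar) for 46 genes (rows, grouped by role) in the first hour (left), at 2 to 6 h (middle) and at 12 to 48 h (right), where black marks an adjusted p under 0.05. Most points lie within 0.3 of 0, and E2f2 stands apart at -0.62 and -1.04 in the later panels.

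Whether the arms changed differently over time was tested directly. From the first hour to 2 to 6 h the difference rose for Tyms (0.33 ± 0.09, adjusted p = 0.048) and fell for E2f2 (-0.75 ± 0.11, adjusted p = 0.0053), where 3.36% of all genes were called higher and 2.88% lower. The E2f2 call held without any 1 time. Tyms lost its call without 15 min, 30 min, 1 h, 3 h or 6 h, and its adjusted p ranged over 13 alternatives between 0.016 and 0.17. Scaled by library totals alone, 0 rose and 2 fell. From 2 to 6 h to the late times it rose for E2f7 (0.65 ± 0.14, adjusted p = 0.022) and E2f8 (0.5 ± 0.11, adjusted p = 0.019) and fell for Cdt1 (-0.3 ± 0.07, adjusted p = 0.037) and Chaf1b (-0.3 ± 0.07, adjusted p = 0.03), where 3.85% were called higher and 2.95% lower. None of these 4 calls held without 2 h, without 3 h or without 24 h, where 0 rose and 0 fell. Without 48 h 1 rose and 1 fell, without 12 h 6 fell, and with lane as a term 0 rose and 0 fell. With moved phase limits 0 rose and 4 fell.

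Other genes of the same machinery were counted by lists that do not share members with the 47. Of 41 other replication genes tested, 21 rose and 2 fell at 2 to 6 h in the stimulated arm (median log2 fold change 0.29), and 19 rose and 1 fell in the untreated arm (0.33). The shares over all genes were 22.1% higher and 19.3% lower stimulated, and 13.6% higher and 11.9% lower untreated. Dna2, a nuclease of the lagging strand, rose by 0.9 ± 0.18 stimulated and 0.87 ± 0.18 untreated, and Mtbp, a partner of origin firing, fell in both (-1.03 ± 0.19 and -0.81 ± 0.19). Of 18 other nucleotide supply genes 14 rose and 3 fell stimulated (median 0.59), and 8 rose and 2 fell untreated (0.42). Cad, the first enzyme of pyrimidine synthesis, rose by 0.93 ± 0.23 and 0.91 ± 0.23. Rrm2b, the reductase subunit of resting and damaged cells, fell by 1.57 on the log2 scale in the stimulated arm and by 1.39 in the untreated arm, opposite to Rrm2. Samhd1, which destroys deoxynucleotides, fell by 0.55 and 0.3. Of 12 E2F partners and pocket proteins 2 rose and 4 fell stimulated, and 2 rose and 1 fell untreated. Rbl2, a pocket protein of resting cells, fell by 1.17 stimulated (SE 0.18, adjusted p = 3e-04) and by 0.8 untreated (SE 0.18, adjusted p = 0.0068). Late, Rbl2 was higher in stimulated than in untreated libraries (0.47 ± 0.1, adjusted p = 0.0034). Between arms at the late times 5 of 41 other replication genes were higher and 6 lower, and 5 of 18 nucleotide supply genes were higher and 2 lower, with Prps1 highest (0.41 ± 0.05) and Samhd1 lowest (-0.55 ± 0.05). Of 12 E2F partners and pocket proteins 3 were higher and 2 lower. Over all genes 18.8% were higher and 17.4% lower, so the counts of the other replication genes did not exceed the background. For the nucleotide supply genes and the E2F partners the share of higher genes lay above the background and that of lower genes below it. These lists are short and were not tested as sets.

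Per kilobase of exon, the median level over the 20 libraries was highest for Pcna, at 143 CPM per kb, followed by Mcm4 at 118, Mcm5 at 114 and Mcm6 at 106. It was lowest for E2f7, at 1.15 CPM per kb. The ranges over time of Pcna, Mcm4, Mcm5 and Mcm6 overlapped (81.5 to 206, 86.2 to 154, 70.1 to 163 and 81.8 to 132 CPM per kb), so their order is not fixed by these data.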

How the data were processed

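Poly-A RNA libraries were aligned with STAR and counted per gene with HTSeq against GRCm38.p3 (mm10), per the submitters' processing notes. The authors deposited raw read counts, 1 table per library. The sources used here give no versions, annotation or strand setting. The filter on low values (1 CPM or more in 3 or more of 20 libraries) kept 12139 of 41115 genes. Counts were tested with the quasi-likelihood F-test of edgeR 4.0.16 in R 4.3.3 after TMM scaling, two-sided, with Benjamini-Hochberg adjustment over all genes tested and a threshold of 0.05. Treatment was tested in a fit with time as a factor, and time within each arm in a fit of arm by phase, with 3 times per phase (15 min to 1 h, 2 to 6 h, 12 to 48 h). The error given is the SE of the log2 fold change. Values at single times use log2 of CPM plus 0.5. Alternatives were other scalings (RLE, library totals), DESeq2 1.42.0, other filters, lane as a term, moved phase limits, the 0 min pair as baseline and each time left out. The script was tested on simulated counts. All 47 genes could be named, with values in every library for a fixed set and for the 3 largest changes each way per comparison, and up to 3 each way from other lists. Members and lists were chosen with earlier results of these data known. The small RNA libraries of the same tubes were not used here.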

Additional observations from a re-analysis of the deposited data

Results flagged for a closer look

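For 6 genes the difference between stimulated and untreated libraries itself changed between phases, by edgeR's test of the interaction with adjusted p under 0.05 over all genes. From the first hour to 2 to 6 h it changed by -0.75 on the log2 scale for E2f2 and by 0.33 for Tyms. The E2f2 value held under all 13 alternatives, between -0.83 and -0.61. The Tyms value lay between 0.25 and 0.41 and passed the threshold without 2 h, and not without 15 min, 30 min, 1 h, 3 h or 6 h, when scaled by library totals alone or with lane as a term. From 2 to 6 h to 12 to 48 h it changed by 0.65 for E2f7, 0.5 for E2f8, -0.3 for Cdt1 and -0.3 for Chaf1b. Each of these 4 fell short of the threshold without 2 h, 3 h or 24 h, with lane as a term and with moved phase limits. The part of lane in these differences was not tested at single times, since the arms were never in the same lane at a time.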

How the results depend on the processing

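The treatment comparisons already pair the arms by time. No paired analysis was possible beyond that, because no replicate number stands in any label, and the treatment comparisons could not be fitted with lane as a term, since lane and arm are aliased within times. Of 107 gene results over 1328 alternatives, 1048 kept direction and side of the threshold, 279 kept direction only and 1 turned, E2f3 in the first hour relative to the 0 min pair (0.04). Ranges below are the lowest and highest counts with 1 time left out. Counts of members are given as higher or lower in stimulated than untreated libraries, or in the later phase. In the first hour the 3 lower became 5 with no filter, 0 relative to the 0 min pair and 0 to 0 without any 1 time. At 2 to 6 h the 0 higher became 5 with moved limits and 0 to 1 without any 1 time, and the 5 lower became 9 with library totals, 0 relative to the 0 min pair and 2 to 7. At 12 to 48 h the 4 higher became 1 with library totals, 2 with at least 5 CPM in 3 libraries, 1 with moved limits, 0 relative to the 0 min pair and 2 to 4, and the 9 lower became 20, 15, 14, 1 and 5 to 16. For the interaction to 2 to 6 h the 1 higher became 0 with library totals, 4 with DESeq2, 4 with no filter, 0 with lane, 2 with moved limits and 0 to 2, and the 1 lower became 2 with library totals, 2 with DESeq2, 3 with no filter, 2 with at least 5 CPM, 2 with moved limits and 1 to 2. For the interaction to the late phase the 2 higher became 0 with lane, 0 with moved limits and 0 to 2, and the 2 lower became 5 with no filter, 0 with lane, 4 with moved limits and 0 to 6. In the stimulated arm at 2 to 6 h the 30 higher ranged over 27 to 33 with 1 time left out, and the 1 lower became 2 with library totals and 1 to 2. With moved limits 22 of these 31 calls held. Late, the 5 higher became 8 with DESeq2, 3 with no filter, 2 with lane, 0 with moved limits and 2 to 16, and the 5 lower became 0 with moved limits and 2 to 9. In the untreated arm at 2 to 6 h the 30 higher ranged over 9 to 32 with 1 time left out, and the 1 lower became 0 with no filter, 0 with lane and 0 to 1. Moved limits kept 18 of these 31 calls. Late, the 6 higher became 1 with no filter, 0 with lane, 0 with moved limits and 0 to 15, and the 2 lower became 5 with library totals, 4 with DESeq2, 4 with at least 5 CPM, 0 with lane, 0 with moved limits and 0 to 7. A pseudocount of 2 left all 10 medians at single times within rounding. The causes were not tested. Cdc45 was left without a readable level, while each of the other 46 genes was above 1 CPM in every library.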
